A study of Apis mellifera with 4 samples.

Results

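AmOBP01 and AmOBP02 are honey bee (Apis mellifera) odorant binding proteins of the antenna, also called ASP1 and ASP2. They were chosen by name: every spot carrying either name was taken, on every array and in both channels. These are 2 of the 313 genes on the array and 2 of its 19 odorant binding proteins. Each gene was printed in 2 spots, and the 4 arrays with 2 channels each gave 16 intensities per gene. Drone (male) antennal RNA was compared with worker (female) antennal RNA on every array. Each RNA came from its own pool of 50 sets of whole antennae, dissected from bees taken at the hive entrance. The design text calls the drones mature, and it gives the pools as independent collections with an even dye swap. By the label fields, drone cDNA carried Cy3 on arrays 1 and 3 and Cy5 on arrays 2 and 4, and worker cDNA carried the other dye. The labels used here give no strain, colony or exact age. By the array numbers in the labels, arrays 3 and 4 shared slide 7, and arrays 1 and 2 were on slides 4 and 5.

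Odorant binding proteins are small, soluble, secreted proteins. Support cells make them and release them into the fluid around the olfactory neurons, where they carry hydrophobic odorants. AmOBP01 is known to bind the main component of queen mandibular pheromone, the signal that draws drones to a queen on mating flights and that workers sense in the hive. AmOBP02 is a general odorant binding protein that was described from worker antennae and takes up a range of volatile odorants.

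The antennal origin of the RNA was checked on olfactory markers. AmOr002, the co-receptor of the odorant receptors, and AmSNMP, a membrane protein of sensory neurons, had signal above the negative controls on 4 of 4 arrays in drone and in worker antennae. The negative controls here leave out oligo 4, a bright control. The opsins AmLop2, AmLop1, AmUVop and AmBLop, which mark eye tissue, were above them on 0, 0, 0 and 1 arrays in drone and on 0, 2, 1 and 0 arrays in worker antennae. With oligo 4 among the controls, AmOr002 was above them on 4 arrays in drone and 2 in worker. AmSNMP was then above them on 2 and 3 arrays, and each opsin on 0. The median signal of all gene spots above local background was lowest on array 2, with 42 scanner units in drone and 105.5 in worker. On the other arrays it lay between 178 and 573.5 in drone and between 213.5 and 643 in worker.

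AmOBP02 was lower in drone than in worker antennae on every array, by 7.31-fold on average after normalization. Of all 313 genes, 102 had the same sign on all 4 arrays. AmOBP01 held saturated pixels in both sexes on 3 of 4 arrays. On array 2, the dimmest one, AmOBP01 was at least 10.0-fold brighter in drone than in worker antennae, before normalization and averaged over its spots. That array was the only one where either sex was free of saturated pixels, so the AmOBP01 ratio has no replicate free of saturated pixels. Judged by the median intensity of a spot, only the first spot of array 3 was in range in both sexes. Its log2 drone over worker ratio was -0.18 before normalization.

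The raw intensities of AmOBP01 show how few of its spots were within range. The scanner's scale ends at 65535, and a spot whose foreground median reached that value is called saturated. On array 1 both spots read 65535 in drone and both read 65535 in worker. On array 2 both spots read 65535 in drone, against 6308 and 6881 in worker.

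On array 3 the drone spots of AmOBP01 read 35030 and 58586, against 39405 and 65535 in worker. On array 4 both drone spots read 65535, against 54642 and 21973 in worker. In all, 6 of 8 drone spots and 3 of 8 worker spots were saturated. The drone and worker readings overlapped over the 4 arrays, and the lowest worker readings were those of array 2.

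**Figure D1:**
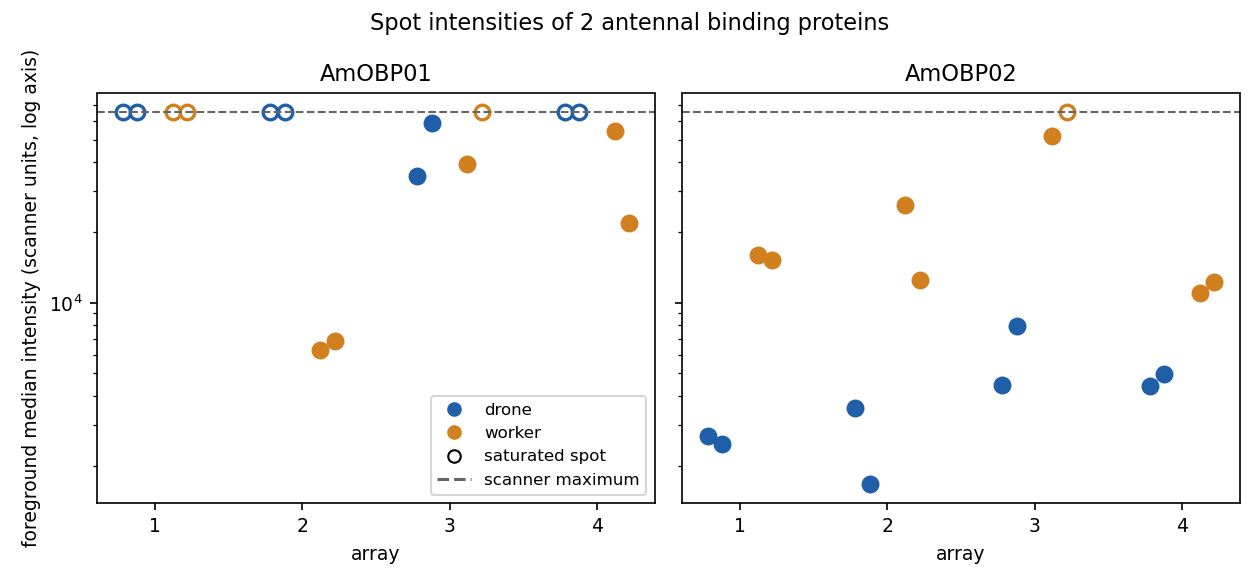
Foreground median intensity of each spot on a log axis, for AmOBP01 (left) and AmOBP02 (right), by array, with drone left of worker and open circles for saturated spots at 65535 (dashed line). AmOBP01 reached the line in 6 of 8 drone and 3 of 8 worker spots, while AmOBP02 reached it in 1 worker spot and its drone spots lay under its worker spots on each array.

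A median below the maximum did not mean that a spot of AmOBP01 was free of saturation. The files give the percent of saturated pixels in each spot. In drone, all 8 spots held saturated pixels, from 40% to 100% of the spot. In worker, 6 of 8 spots held them, up to 100%, and the 2 spots without any were those of array 2.

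On array 3 the first AmOBP01 spot had a foreground median under the maximum in both channels, and still 40% of its drone pixels and 42% of its worker pixels were saturated. It was the only 1 of the 8 spots that was saturated in neither channel by the median. No AmOBP01 spot on any array was free of saturated pixels in both channels. AmOBP01 was 1 of 2 genes on the array with saturated pixels in every drone spot.

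**Figure D2:**
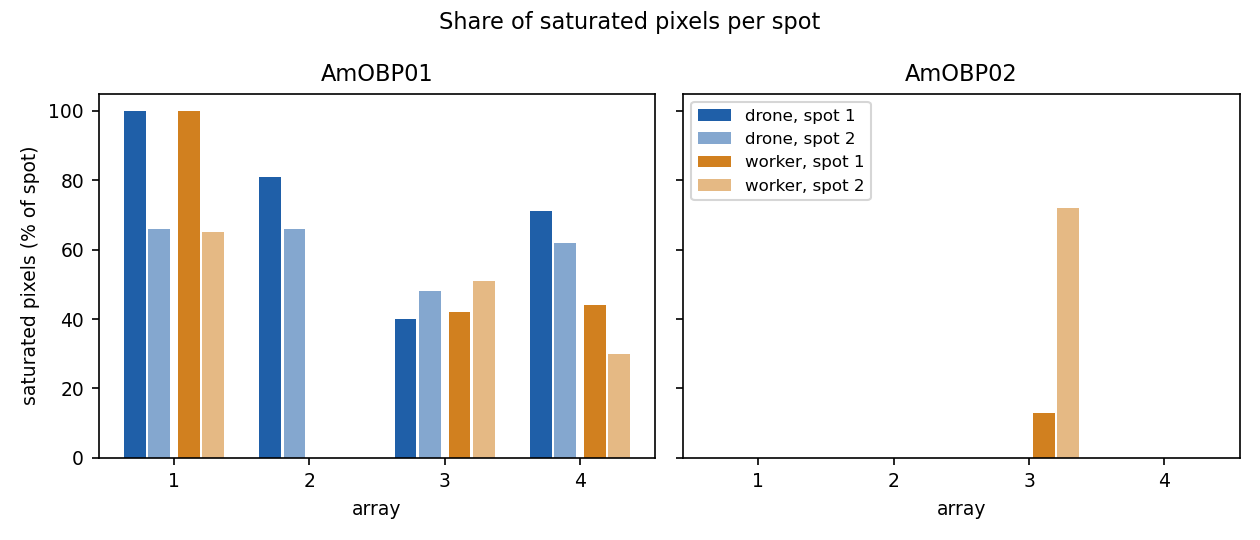
Percent of saturated pixels in each spot of AmOBP01 (left) and AmOBP02 (right), by array, with drone bars (blue) left of worker bars (orange) and 1 bar per spot. All drone spots of AmOBP01 held between 40% and 100% saturated pixels, its worker spots on array 2 held 0%, and AmOBP02 held them only in the worker spots of array 3.

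The ratio of AmOBP01 on array 2 has a saturated drone channel and an unsaturated worker channel. The value before normalization is thus a lower bound on the brightness ratio of that spot. After subtraction of local background and without normalization, drone was at least 10.5-fold brighter than worker in the first spot (log2 3.39). In the second spot drone was at least 9.61-fold brighter (log2 3.26). Both spots came from the same 2 RNA pools and are not replicates of the sexes.

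On arrays 1, 3 and 4 both channels of AmOBP01 held saturated pixels. A foreground median under 65535 is not itself clipped, so what the ratio of medians bounds differed by array. For array 1 it is neither an upper nor a lower bound. On array 1, where every spot was saturated in drone and in worker, the log2 ratio before normalization was -0.02, which reflects only the local background that was subtracted. On array 3 it was -0.18. There the first spot had both medians in range, at -0.18. The second had only its worker median at the maximum, so its -0.17 is an upper bound. On array 4 it was 0.92, with 0.26 in the first spot and 1.57 in the second. Only the drone medians were at the maximum on array 4, so these values before normalization are lower bounds. The 2 spots of array 4 thus disagreed by more than 1 unit, and after normalization they had opposite signs, -0.49 and 0.72.

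After loess normalization within each array, the log2 drone over worker ratios of AmOBP01 were 0.01, 3.25, -0.12 and 0.12 on arrays 1 to 4. Their mean was 0.82 ± 0.57 (limma's standard error, n = 4 arrays), with a 95% interval from -0.55 to 2.18 and an adjusted p = 0.505 (limma, Benjamini-Hochberg over 313 genes). Flipping the signs of the 4 arrays in an exact two-sided permutation test gave p = 0.375. These tests ran on ratios clipped by saturation and carry no information on direction for AmOBP01. Array 2 alone held nearly all of the mean. Without array 2 the mean was 0.01 ± 0.22 (adjusted p = 0.9995 by limma, in a range from 0.159 over all settings). Loess moved the ratio of array 4 by -0.80 and the other 3 ratios by less than 0.07.

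Array 2 was also 1 of the 2 arrays with drone in Cy5. The mean log2 ratio of AmOBP01 was 1.69 with drone in Cy5 and -0.05 with drone in Cy3. On array 4, the other one with drone in Cy5, the ratio was 0.12, and the part of the dye in this result was not tested.

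AmOBP02 had its drone intensities within range throughout. On array 1 its foreground medians were 2700 and 2477 in drone, against 16056 and 15255 in worker. On array 2 they were 3547 and 1671 in drone, against 26104 and 12480 in worker. On array 3 they were 4437 and 7929 in drone, against 51821 and 65535 in worker. The drone spots were lower than the worker spots of the same array in each case, though the brightness of a single array moved both.

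On array 4 the readings of AmOBP02 were 4420 and 4971 in drone, against 11009 and 12327 in worker. No drone spot held a saturated pixel. Of the worker spots, 1 of 8 was saturated by the median, the second spot of array 3, and its first spot had 13% saturated pixels. Before normalization the array 3 fold is therefore a lower bound.

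Averaged over its spots, the AmOBP02 signal above local background ran from 2389.5 to 5958.5 scanner units in drone and from 11515.5 to 58525.5 in worker. The 2 ranges did not overlap, but these signals are not normalized and move with the brightness of each array. The share of all genes with ranges apart is not given here. On the normalized log2 scale its level was 11.63 ± 0.51 in drone and 14.50 ± 0.50 in worker (SD, n = 4). In whole antennae, fewer cells that make a transcript and less of it per cell cannot be told apart.

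AmOBP02 exceeded the negative controls in drone on 4 of 4 arrays. With oligo 4 among the controls it was above them on 1 of 4, and the worker signal on 4 of 4 either way. AmOBP01 was above the controls on 4 of 4 arrays in drone and in worker by both thresholds. For AmOBP01 the normalized log2 level was 15.70 ± 0.91 in drone and 14.88 ± 0.88 in worker (SD, n = 4), values set partly by the top of the scale, and its 2 ranges overlapped.

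The log2 drone over worker ratios of AmOBP02 were -2.97, -2.89, -3.12 and -2.50 on arrays 1 to 4. Their mean was -2.87 ± 0.17 (limma's standard error, n = 4 arrays), with a 95% interval from -3.29 to -2.45 and an adjusted p = 1.05e-04 (limma, Benjamini-Hochberg over 313 genes). Drone was lower on 4 of 4 arrays, and 102 of the 313 genes had the same sign on all 4. An exact permutation test by sign flips (two-sided) gave p = 0.125, the smallest that 4 arrays allow. In the same fit 37 genes passed, 11.8% of the array, with 23 higher in worker (7.35%) and 14 higher in drone (4.47%). AmOBP02 had the fifth lowest drone over worker ratio of all 313 genes.

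The size of the AmOBP02 difference varied more before normalization than after it. With local background subtracted and no normalization, drone was 6.48-fold lower on array 1, 7.52-fold on array 2, 10.2-fold on array 3 and 2.52-fold on array 4. Loess moved the log2 ratio of array 4 by -1.19, more than on any other array. The median log2 ratio of all gene spots before normalization was lowest on array 4, at -1.15. AmOBP02 was at -1.31 there after normexp and before loess, close to that median. Centring array 4 on its median alone moves ratios up, whereas loess moved AmOBP02 down. The size of its difference on array 4 thus rests on loess. When each array was centred on the median of its genes without loess, AmOBP02 had a log2 ratio of -2.37 ± 0.58 and missed the threshold (adjusted p = 0.0912 by limma, in a range from 3.22e-08 to 0.851 over all settings).

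**Figure D3:**
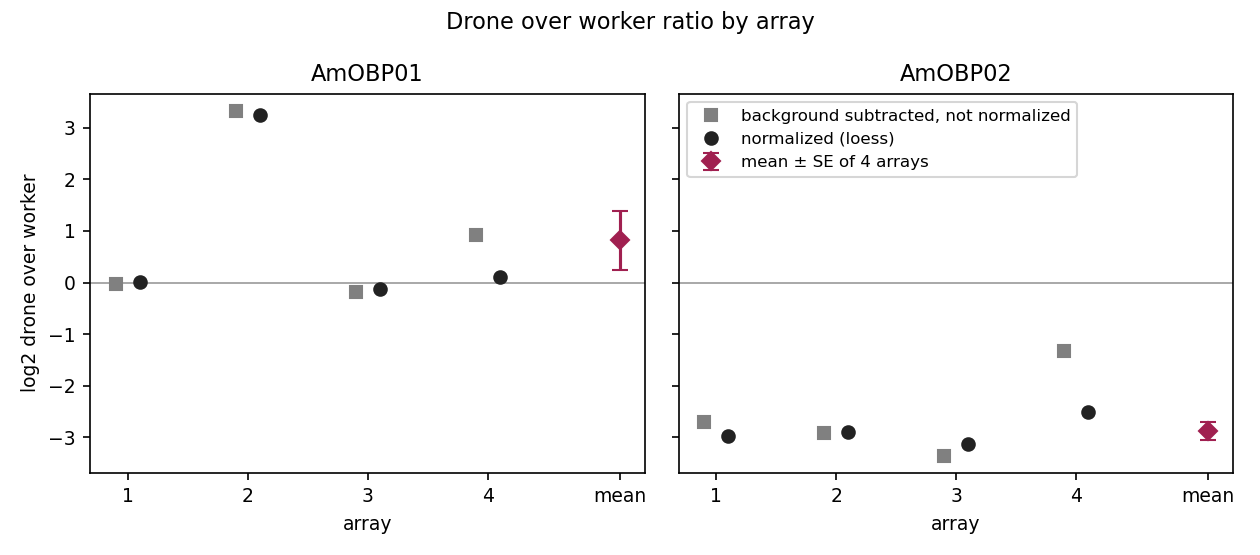
Log2 drone over worker ratio of AmOBP01 (left) and AmOBP02 (right) by array, before normalization (squares) and after loess (circles), with the mean ± SE of the 4 normalized ratios (diamond). AmOBP01 lies near 0 on arrays 1, 3 and 4 after loess and at 3.25 on array 2, whereas AmOBP02 lies between -3.12 and -2.50 on all 4.

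Duplicate spots of AmOBP02 gave nearly the same ratio. The normalized log2 ratios of its 2 spots differed by 0.06, 0.02 and 0.03 on arrays 1, 2 and 4 in absolute size where the median gene differed by 0.13 to 0.17. On array 3, where the second worker spot was saturated, its spots were at -3.35 and -2.90. With the saturated spot left out, the mean of AmOBP02 was -2.93 ± 0.19 (adjusted p = 1.40e-04 by limma). After loess the mean of AmOBP02 was -2.69 with drone in Cy5 and -3.05 with drone in Cy3. With local background subtracted and no normalization, its ratios were -2.91 and -1.33 on arrays 2 and 4, with drone in Cy5. They were -2.70 and -3.35 on arrays 1 and 3, with drone in Cy3. Loess can take out a dye difference, and the part of the dye was not tested. Within slide 7 the mean of its 2 arrays was -2.81, and over the other 2 slides it was -2.93.

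The 2 binding proteins were also set against each other within each array, where the log2 ratio of AmOBP01 minus that of AmOBP02 removes any shift common to the array. The difference was 2.99, 6.14, 3.01 and 2.62 on arrays 1 to 4. Its mean was 3.69 ± 1.65 (SD, n = 4), positive on 4 of 4 arrays. By exact two-sided permutation of the signs p was 0.125, the smallest possible, so this comparison cannot reach 0.05. Without array 2 the mean difference was 2.87. Saturated AmOBP01 values enter every one of these differences. On array 1 both sexes were at the maximum in both spots, so the difference is bounded on neither side. The differences were taken after loess, so those of the other arrays are not read as bounds either.

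Among the 19 odorant binding proteins, 7 were higher in worker and 0 in drone, beside 7.35% and 4.47% of all genes. The median log2 ratio of the 19 was -0.28, against 0.01 over all 313 genes. Besides AmOBP02 the called members were AmOBP11 (-3.43 ± 0.16), AmOBP19 (-3.16 ± 0.23), AmOBP13 (-2.07 ± 0.26), AmOBP04 (-1.98 ± 0.29), AmOBP14 (-1.84 ± 0.25) and AmOBP15 (-0.94 ± 0.22), each given as log2 drone over worker with limma's standard error. Of these calls, AmOBP15 was lost under 13 of 24 other settings, AmOBP14 under 4, AmOBP04 under 2 and untested under 2 more that left it 1 array, AmOBP13 under 2, AmOBP19 under 1 and AmOBP11 under none, not counting the dyes of the protocol text. AmOBP15 was lost without array 2 (adjusted p = 0.252 by limma) and without array 3 (0.154), in a range from 0.00410 to 0.851. AmOBP01 has no place in an order of the family, since its mean of 0.82 was 0.01 without array 2 and its value without saturated spots was -0.08 on the 1 array left. AmOBP08, named after its value was seen, had a mean of 0.72 that was not called and rested on array 4, at 3.02, and -0.04 was its mean without that array.

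Saturation was common in the family. A saturated spot occurred on at least 1 array in 9 of the 19 odorant binding proteins and in 8 of the 294 other genes. In AmOBP04, a called member, worker was saturated on 3 arrays.

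**Figure D4:**
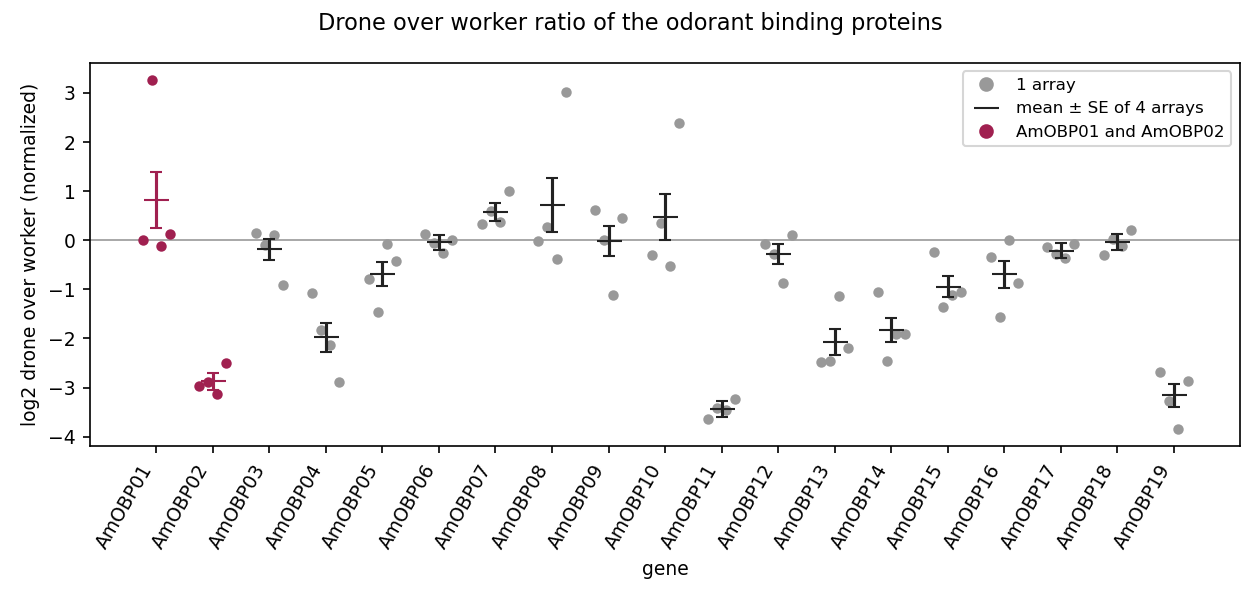
Normalized log2 drone over worker ratio of the 19 odorant binding proteins, with 1 point per array (arrays 1 to 4 from left to right) and the mean ± SE of 4 arrays, and AmOBP01 and AmOBP02 in red. AmOBP02, AmOBP11 and AmOBP19 have all 4 points under -2.4, and AmOBP01 has 1 point at 3.25 with the other 3 near 0.

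The genes most like each binding protein were found by the root mean square difference between their log2 ratios over the 4 arrays. The comparison used all 313 genes. Nearest to AmOBP02 were AmOBP19 at 0.47, AmOBP11 at 0.58 and the alpha-arrestin AmAAR2 at 0.86. AmOBP19 had ratios of -2.67, -3.27, -3.84 and -2.86, and AmOBP11 had -3.63, -3.41, -3.46 and -3.24. None of these 3 genes had a saturated spot in either sex. Genes with saturated spots, such as AmOBP04, entered the distances with clipped ratios.

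For AmOBP01 the distances rest on its saturated ratios, so the genes listed show no likeness to its true ratio. The smallest distances were those of AmOr159, an odorant receptor, at 1.21, the cytochrome P450 AmCyp006BC1 at 1.23 and the odorant receptor AmOr166 at 1.24. AmOr159 had its highest ratio on array 2, at 1.37, and a mean of 0.77 ± 0.29 that was not called (adjusted p = 0.170 by limma). It passed without array 4 (1.11 ± 0.20, adjusted p = 0.00333 by limma) and with a dye coefficient in the model (adjusted p = 0.0441 by limma), in a range up to 0.995. All 3 of these genes had a positive mean and none had a saturated spot.

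RefSeq's gene table for assembly Amel_HAv3.1 was used for gene order, matching the array's names to RefSeq symbols by number, which 18 of the 19 odorant binding proteins allowed. The looking up of neighbours was decided after the values had been seen. AmOBP01 (Obp1, synonym asp1) was the only Obp gene named on its linkage group. AmOBP02 (Obp2, synonym asp2) lay in an unbroken run of 6 Obp genes, in the order AmOBP05, AmOBP06, AmOBP02, AmOBP07, AmOBP03 and AmOBP04, with no other protein-coding gene between them.

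Among the neighbours of AmOBP02 in the run, AmOBP04 was the only one called. Its mean of -1.98 was clipped, since both worker spots were saturated on arrays 1, 2 and 3 and no drone spot was. On array 4, where no AmOBP04 spot was saturated by the median, its log2 ratio was -2.88, against -2.50 for AmOBP02, and 1 array gives no test of that difference. AmOBP06, next to AmOBP02 on one side, had a log2 ratio of -0.04 ± 0.16, with a sign that flipped under 13 of 24 other settings. AmOBP07, next to AmOBP02 on the other side, had 0.58 ± 0.18 (adjusted p = 0.114 by limma). AmOBP05 and AmOBP03 had -0.69 ± 0.25 and -0.19 ± 0.22 and were not called. AmOBP07 passed among detected genes only (adjusted p = 0.0259), and AmOBP05 did so there (0.0415) and with a dye coefficient (0.0480), all by limma and both in a range up to 0.995. Worker spots of AmOBP05, AmOBP06 and AmOBP07 were saturated on 1 array each, and drone spots of AmOBP05 and AmOBP07 on 1 array each.

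Other genes of odorant and pheromone reception were given beside the binding proteins. AmOr011, known as the receptor for the queen pheromone component that AmOBP01 binds, had log2 ratios of 3.19, 3.46, 3.80 and 3.34 on arrays 1 to 4, with no spot saturated by the median. Its ratios cannot be set against those of AmOBP01, which had saturated pixels in drone on every array. AmOr002 had 0.42 ± 0.16 and AmSNMP -0.49 ± 0.18, and neither was called (adjusted p = 0.174 and 0.173 by limma). Both passed when only detected genes were tested (adjusted p = 0.0415 for each by limma), in ranges up to 0.995 for AmOr002 and 0.9999 for AmSNMP.

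**Figure D5:**
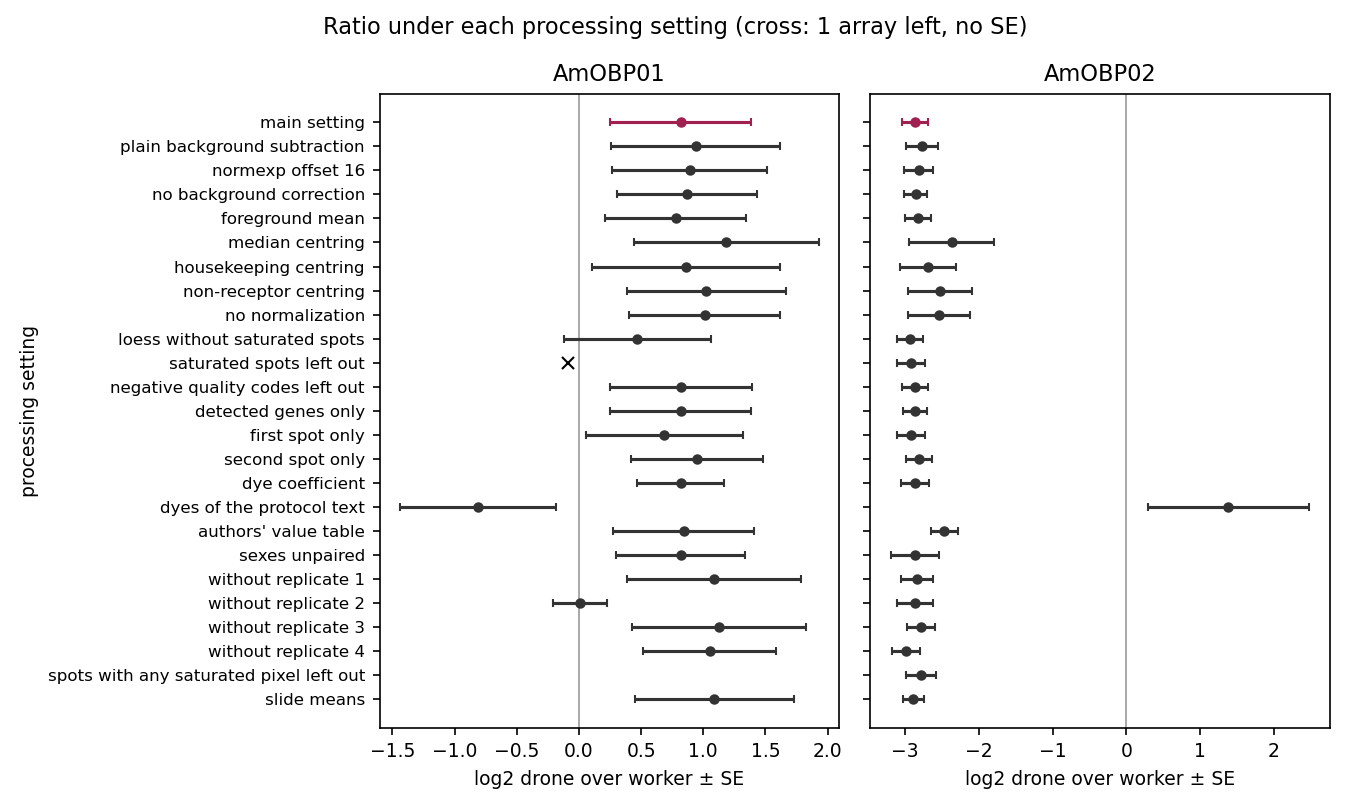
Mean log2 drone over worker ratio ± SE of AmOBP01 (left) and AmOBP02 (right) under each processing setting, with the setting used in the text on top and in red, and a cross where 1 array was left. AmOBP01 was at 0.01 without replicate 2 and had no value when spots with any saturated pixel were left out, whereas AmOBP02 stayed between -2.99 and -2.37 except under the dyes of the protocol text, where it was 1.38.

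The direction of both ratios rests on the dyes in the label fields. In the protocol text of arrays 2, 3 and 4 the dyes are the other way round. With the label-field dyes the 6 pairs of arrays correlated at r = 0.39 to 0.78 across genes, which are not independent replicates. By Spearman's rank correlation the pairs ran from 0.04 to 0.63, with 0.05 for arrays 1 and 4 and 0.04 for arrays 3 and 4. With the dyes of the protocol text the pairs with array 1 had r of -0.78, -0.76 and -0.42. The pairs among arrays 2, 3 and 4 kept their r of 0.69, 0.73 and 0.39. With those dyes AmOBP02 would have a mean of 1.38 ± 1.09 and AmOBP01 of -0.81 ± 0.62, both with an adjusted p = 0.851 by limma.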

How the data were processed

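Per the file headers, the authors deposited unnormalized spot intensities in the Cy5 and Cy3 channels, with the percent of saturated pixels per spot and a quality score (-75 for an absent spot). The authors' deposited value table holds log2 ratios per spot with no stated scale, centring or direction. Turned against the scanner values it ran as worker over drone, with correlations of 0.98, 0.91, 0.94 and 0.98 on arrays 1 to 4 and column medians of -0.02, -0.09, -0.06 and 0.08. It served as an alternative, and its normalization stays unknown. The scanner and its software are not given in the sources used here.

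Foreground medians were corrected with normexp (offset 50), and loess was fitted within arrays on gene spots alone. Spots without a name were dropped, and the main setting left out no spot for its quality score. Spots of a gene were averaged and saturated spots kept. Drone over worker ratios were fitted as a mean of 4 arrays with limma 3.58.1 in R 4.3.3, two-sided, at a Benjamini-Hochberg adjusted p of 0.05 over 313 genes. Levels per sex were taken after loess and quantile normalization of average intensities. Controls set a threshold of the mean plus 2 SD of their signal. Loess hides a shift shared by most genes. Scripts were tested on simulated data with the average brightness of a spot capped below the top of the scale, so the test says little on saturated spots. The number of arrays limits precision.

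Named genes were the members, the called odorant binding proteins, the 3 nearest genes to each member by root mean square difference, AmOr011, AmOr002 and AmSNMP. AmOBP08 and the neighbours of AmOBP02 were added after their values were seen. Members and lists were chosen with earlier results of these data known. Probe sequences were not used here.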

Additional observations from a re-analysis of the deposited data

Results flagged for a closer look

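Among 25 sets of 4 array values, 2 had 1 array far from the other 3, and the 2 sets share the AmOBP01 ratio of array 2. Chance alone marks about 1 in 20 sets of unclipped values. That rate does not hold for ratios clipped by saturation, as those of AmOBP01 were. The log2 drone over worker ratio of AmOBP01 was 3.25 on array 2, against -0.12 to 0.12 on the others. The AmOBP01 minus AmOBP02 difference was 6.14 on array 2, against 2.62 to 3.01 on the others. Array 2 was the dimmest array and the only one where the worker spots of AmOBP01 held no saturated pixel.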

How the results depend on the processing

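AmOBP02 stayed lower in drone and past the threshold under 22 of 24 other settings, with log2 ratios down to -2.99. It missed the threshold under median centring without loess (-2.37, adjusted p = 0.0912 by limma) and reversed with the dyes of the protocol text (1.38, adjusted p = 0.851 by limma). Left out 1 at a time, the arrays gave -2.99 to -2.79 for AmOBP02, 0.01 to 1.13 for AmOBP01 and 2.87 to 4.05 for their difference, with the lowest AmOBP01 value and the lowest difference without array 2. AmOBP01 was past the threshold under no setting, with adjusted p from 0.159 to 0.9995 by limma. It turned to -0.085 on the 1 array left without saturated spots, which has no test, and to -0.81 with the protocol dyes, where the difference was -2.19. No AmOBP01 spot was left without saturated pixels, so that setting, added with the slide means after seeing the data, gave it no value. Slide as a random block could not be fitted, since 4 arrays on 3 slides gave no correlation for any gene. Both sexes share every array, so the ratio is itself the paired analysis, and with the sexes unpaired AmOBP02 was still past the threshold (adjusted p = 3.03e-04 by limma) and AmOBP01 was not (0.617).

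The drone count of 14, the worker count of 23 and the odorant binding protein count of 7 were 4, 4 and 1 under median centring, 2, 5 and 3 under housekeeping centring and 0, 0 and 0 with the protocol dyes. Drone and worker counts were 6 and 15 under non-receptor centring and 4 and 13 without normalization. The drone count was 8 with the sexes unpaired, and the worker count was 13 among the 36 detected genes. Leaving out 1 array gave 6 to 14, 13 to 29 and 6 to 7, with 7, 6 and 8 drone calls without arrays 1, 2 and 3 and 13 worker calls without array 2.

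With the protocol dyes the other named genes reversed too: AmAAR2 1.52, AmCyp006BC1 -0.30, AmOBP03 0.26, AmOBP04 1.44, AmOBP05 0.29, AmOBP07 -0.41, AmOBP08 -0.73, AmOBP11 1.62, AmOBP13 0.83, AmOBP14 1.31, AmOBP15 0.82, AmOBP19 1.82, AmOr002 -0.11, AmOr011 -1.85, AmOr159 -0.18, AmOr166 -0.36 and AmSNMP 0.29. Without 1 array AmOBP03 ran from -0.30 to 0.051, AmOBP08 from -0.043 to 1.09 and AmOBP06 from -0.10 to 0.029. AmOBP06, near 0, was also positive under plain subtraction (0.061), normexp offset 16 (0.011), the foreground mean (0.029), median (0.40), housekeeping (0.069) and non-receptor centring (0.23), no normalization (0.22), without saturated spots (0.029) or saturated pixels (0.029), on the second spot (0.021), with the protocol dyes (0.11) and in the authors' deposited table (0.12). The cause was not tested.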
